A study of Saccharomyces cerevisiae with 11 samples.

Results

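The mitochondrial ribosomal protein genes of *Saccharomyces cerevisiae* were taken here as the genes whose symbol in the array annotation is MRPL, MRPS, MRP or RSM followed by digits only. The rule found 66 of the 5449 *S. cerevisiae* genes tested, each with 1 probe set on the array. Of the 66, 37 encode proteins of the large subunit and 28 encode proteins of the small subunit. The remaining gene, *MRP8*, carries the name of the family but is not known as a ribosomal protein.

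Messenger RNA was profiled on Affymetrix yeast arrays in cells carrying the *rna15-1* allele (3 arrays), cells carrying the *rna14-1* allele (3 arrays) and wild-type W303-1B cells (5 arrays). Rna14 and Rna15 are subunits of cleavage factor I, the complex that cuts and helps to polyadenylate the 3′ ends of yeast transcripts. All strains were grown to mid-log phase in rich medium at 30°C, and the labels give them the same background, *MAT*a with the auxotrophic markers *trp1-1*, *his3-11,15*, *ade2-1* and *ura3-1* and a *leu2* allele. Arrays are labelled as biological replicates of 1 strain per genotype, so p-values measure the spread between cultures of these strains.

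The mitochondrial ribosome translates the few messages of mitochondrial DNA, most of which encode core subunits of the respiratory chain and the ATP synthase. Nearly all of its proteins are encoded in the nucleus, translated in the cytosol and imported. In yeast the RNA-binding protein Puf3 binds the 3′ untranslated regions of many of these messages, which makes their 3′ ends a known place of control. Many of the proteins have bacterial counterparts, while others occur in mitochondria only.

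All 66 genes were measured well above background on all 11 arrays, with a median log2 intensity per array of 10.616 to 11.071, against a background level (the 95th percentile of probe sets for another yeast) of 4.19 to 4.44. Across genes, the third *rna15-1* array correlated at 0.965 with replicate 1 and 0.964 with replicate 2, whereas these 2 correlated at 0.997. Wild-type replicates 1 and 2 correlated at 0.981 to 0.989 with replicates 3 to 5, which is below the correlations within either set (0.991 to 0.996). Transcripts specific to alpha cells were high on all arrays (11.42 to 14.21 over 4 genes) although every label gives *MAT*a. Those specific to a cells (7 genes) lay at 8.46 to 12.19 in *rna15-1*, 8.31 to 12.27 in *rna14-1* and 5.35 to 8.30 in wild type. What part the differences in these mating-specific transcripts have in the values of the ribosomal protein genes was not tested, and the effect of single arrays is given beside the results. *RNA14* and *RNA15* messages were higher in both mutants (log2 fold changes of 0.80 and 0.66 in *rna15-1*, and 1.18 and 0.84 in *rna14-1*), and since these are alleles and not deletions, that level does not check the labels.

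In *rna15-1* cells the mitochondrial ribosomal protein messages were mostly above wild type, by modest amounts. At an adjusted p under 0.01 (limma, Benjamini-Hochberg over the 5449 genes), which is what rose and fell stand for here, 25 of 66 rose (37.9%), against 28.2% of all genes tested. One gene, *RSM23*, fell (1.52%), against 24.7% of all genes. The median log2 fold change of the 66 was 0.28 (quartiles 0.085 and 0.454), with 53 above 0, against 0.03 over all genes. For 33 of the 66 every *rna15-1* array was above every wild-type array (50.0%, against 32.6% of all genes), and for 4 every array was below (6.06%, against 29.1%).

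In *rna14-1* cells 26 of the 66 rose (39.4%, against 32.8% of all genes) and 9 fell (13.6%, against 29.5%). Their median was 0.13 (quartiles −0.172 and 0.532), with 41 above 0, against 0.00 over all genes. Without *rna14-1* replicate 1, and likewise without replicate 3, 5 of the 66 fell (26.3% and 25.1% of all genes), and the median was 0.084 without *rna14-1* replicate 2 and 0.085 without wild-type replicate 4. The range was wider than in *rna15-1*, with log2 fold changes of −0.71 to 1.80 in *rna14-1* and −0.45 to 1.32 in *rna15-1*. Every *rna14-1* array was above every wild-type array for 28 genes (42.4%, against 37.7%) and below for 14 (21.2%, against 36.1%). Both comparisons use the same 5 wild-type arrays and so are not independent of each other.

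Few of these changes were large. With the full thresholds that the study's methods name (adjusted p under 0.01, log odds B over 2, average log2 intensity over 7 and a change of over 2-fold), 3 genes were called up in *rna15-1* (4.55%, against 6.53% of all genes) and 4 in *rna14-1* (6.06%, against 10.1%). No member was called down in either mutant, although 5 were lower in *rna15-1* and 12 in *rna14-1* at an unadjusted p under 0.05 (limma), and 5.32% and 7.96% of all genes were called down. The genes called up were *MRPS17*, *MRP8* and *RSM18* in *rna15-1*, and *MRPS17*, *MRP8*, *MRPL25* and *MRP13* in *rna14-1*.

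**Figure D1:**
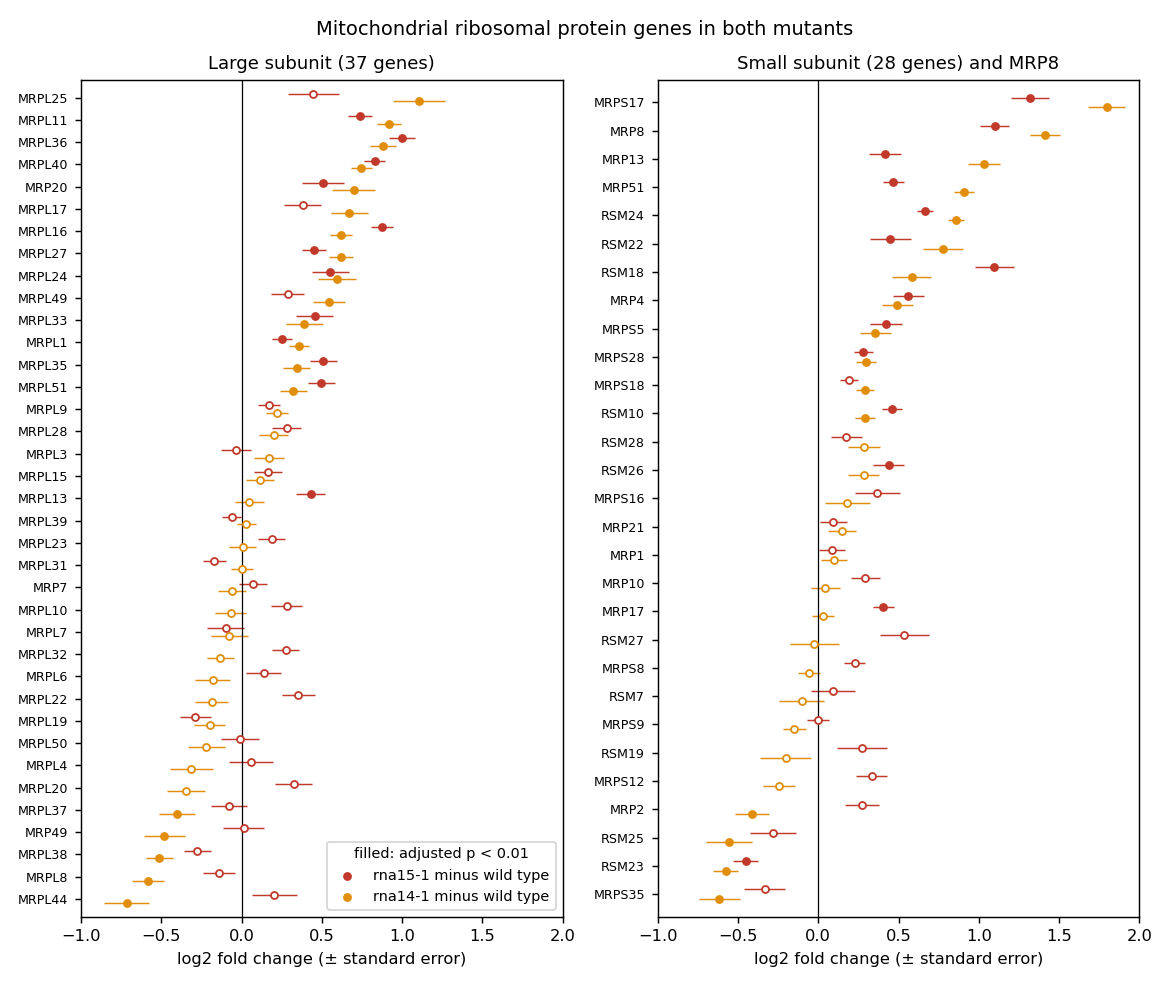
Log2 fold change against wild type (x axis, ± standard error) of the 37 large subunit genes and of the 28 small subunit genes with *MRP8*, ordered by the value in *rna14-1*; red points are *rna15-1*, orange points *rna14-1*, and filled points passed an adjusted p under 0.01. *MRPS17* stood at the top with 1.32 in *rna15-1* and 1.80 in *rna14-1*, and the genes at the bottom were lower in *rna14-1* while most of the same points of *rna15-1* lay nearer 0.

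Among the large subunit genes 12 of 37 rose in *rna15-1* (32.4%, against 28.2% of all genes), with a median of 0.28. None fell there (3 were lower at an unadjusted p under 0.05, limma), against 24.7% of all genes. In *rna14-1* 14 rose (37.8%, against 32.8%) and 5 fell (13.5%, against 29.5%), with a median of 0.05. *MRPL36* (YBR122C, chromosome II), the counterpart of bacterial L31, had log2 intensities of 11.78, 11.78 and 11.78 in *rna15-1*, 11.63, 11.68 and 11.68 in *rna14-1*, and 10.87, 10.97, 10.76, 10.61 and 10.70 in wild type. Every mutant array was therefore above every wild-type array, and the *rna15-1* arrays were nearly identical. The log2 fold change was 1.00 ± 0.08 (SE) in *rna15-1*, which is 2.00-fold and just short of the 2-fold threshold before rounding, and 0.88 ± 0.08 in *rna14-1* (adjusted p = 2e-06 and 3.2e-06, limma).

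*MRPL16* (YBL038W, chromosome II) encodes the counterpart of L16, a protein near the peptidyl transferase centre. It had 11.47, 11.43 and 11.48 in *rna15-1*, 11.11, 11.28 and 11.23 in *rna14-1*, and 10.52 to 10.68 in wild type, a rise of 0.88 ± 0.07 and 0.62 ± 0.07. *MRPL40* (YPL173W, chromosome XVI), for the counterpart of L24, rose by 0.83 ± 0.07 in *rna15-1* and 0.75 ± 0.07 in *rna14-1*. *MRPL11* (YDL202W, chromosome IV), for the counterpart of L10, which anchors the stalk of the large subunit, rose by 0.74 ± 0.07 and 0.92 ± 0.07. None of these 3 genes had a mutant array that overlapped the wild type. The other 8 large subunit genes that rose in *rna15-1* changed by 0.25 (*MRPL1*) to 0.55 (*MRPL24*, the counterpart of L28).

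*MRPL25* (YGR076C, chromosome VII) encodes a protein found in mitochondria only. Its values were 10.49, 10.46 and 11.14 in *rna15-1*, 11.61, 11.22 and 11.23 in *rna14-1*, and 10.06, 10.24, 10.35, 10.24 and 10.38 in wild type. All 6 mutant arrays were above wild type, but replicate 3 of *rna15-1* was close to the *rna14-1* arrays and the other *rna15-1* arrays were close to wild type. The gene rose by 1.11 ± 0.16 in *rna14-1* (2.15-fold, adjusted p = 8.9e-05, limma) and had 0.45 ± 0.16 in *rna15-1* (adjusted p = 0.029). *PEX8*, which lies upstream of it in the same orientation, had 0.93 in *rna14-1* and 0.06 in *rna15-1*.

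The 5 large subunit genes that fell in *rna14-1* were *MRPL44*, *MRPL8*, *MRPL38*, *MRP49* and *MRPL37*. *MRPL44* (YMR225C, chromosome XIII) encodes a protein of mitochondria only. It had 11.12, 11.28 and 10.90 in *rna15-1*, 10.21, 10.23 and 10.11 in *rna14-1*, and 11.09, 11.25, 10.77, 10.63 and 10.74 in wild type. The *rna15-1* arrays lay within or just above the wild-type range, whereas all *rna14-1* arrays were below it, and wild-type replicates 1 and 2 were above replicates 3 to 5. The fall in *rna14-1* was −0.71 ± 0.14 (adjusted p = 0.00083, limma), −0.86 with wild-type replicates 1 to 3 alone and −0.53 with replicates 3 to 5 alone. In *rna15-1* it had 0.21 ± 0.14 (adjusted p = 0.22).

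*MRPL8* (YJL063C, chromosome X), for the counterpart of L17, fell by 0.58 ± 0.10 on the log2 scale in *rna14-1* (adjusted p = 0.0003, limma), and *MRPL38* (YKL170W, chromosome XI), for the counterpart of L14 at the face between the subunits, fell by 0.51 ± 0.09 (adjusted p = 0.00026). In *rna15-1* these had −0.14 and −0.28 and did not pass the threshold. *MRP49* had −0.48 and *MRPL37* −0.40 in *rna14-1* (adjusted p = 0.0058 and 0.0079, limma). Their calls were lost with wild-type replicates 1 to 3 alone (adjusted p = 0.019 and 0.01, the last just over the threshold) and with replicates 3 to 5 alone (0.033 and 0.023).

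Among the small subunit genes 12 of 28 rose (42.9%, against 28.2% of all genes) and 1 fell (3.57%, against 24.7%) in *rna15-1*, with a median of 0.31. In *rna14-1* 11 rose (39.3%, against 32.8%) and 4 fell (14.3%, against 29.5%), with a median of 0.16. *MRPS17* (YMR188C, chromosome XIII), for the counterpart of S17, had the largest change of the 66 in both mutants. Its log2 intensities were 11.24, 11.20 and 11.49 in *rna15-1*, 11.59, 11.95 and 11.83 in *rna14-1*, and 10.07, 9.71, 10.03, 10.02 and 10.15 in wild type. The 3 strains did not overlap, and *rna14-1* was the highest. The rise was 1.32 ± 0.12 in *rna15-1* (2.49-fold, adjusted p = 4e-06, limma) and 1.80 ± 0.12 in *rna14-1* (3.47-fold, adjusted p = 3.7e-07). *GCV2*, a glycine cleavage gene transcribed divergently from its upstream side, had 0.61 in *rna15-1* and 1.31 in *rna14-1* and passed the threshold in both. The neighbours named in the text were picked after their values were seen, and others went against their member. *URA7*, divergent from *MRPL16*, had −0.66 and −0.86, and *ACK1*, divergent from *MRPL11*, had −0.47 and −0.51. Whether members and neighbours change together was not tested.

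*RSM18* (YER050C), for the counterpart of S18, is the one member on chromosome V. It had 12.45, 12.37 and 11.89 in *rna15-1*, 11.60, 11.71 and 11.86 in *rna14-1*, and 11.29, 11.19, 11.09, 11.04 and 11.10 in wild type. All mutant arrays were above wild type, and the third *rna15-1* array was close to the *rna14-1* arrays. The rise was 1.10 ± 0.12 in *rna15-1* (2.14-fold, adjusted p = 1.9e-05, limma) and 0.58 ± 0.12 in *rna14-1* (adjusted p = 0.0013). The call in *rna14-1* was lost with wild-type replicates 1 to 3 alone and with a replicate block (a term for the replicate number). Replicate numbers 4 and 5 occur in wild type only, so the block also compares the mutants with wild-type replicates 1 to 3. The 2 settings are therefore not separate checks. Its adjusted p over 21 alternatives was 5.19e-05 to 0.0184 (limma), the highest with the block. Over the 259 measured genes of chromosome V the median log2 fold change was 0.46 in *rna15-1* (0.01 on all other chromosomes) and 0.03 in *rna14-1*. How much of the *RSM18* value goes with its chromosome was not tested. *JHD1*, its divergent upstream neighbour, had 1.07 in *rna15-1* and 0.65 in *rna14-1*.

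*MRP13* (YGR084C, chromosome VII) and *MRP51* (YPL118W, chromosome XVI) rose in both mutants and were higher in *rna14-1*. *MRP13* had 10.97, 10.85 and 11.35 in *rna15-1*, 11.70, 11.65 and 11.65 in *rna14-1*, and 10.57 to 10.69 in wild type. That is 0.42 ± 0.10 in *rna15-1* (adjusted p = 0.0034, limma) and 1.03 ± 0.10 in *rna14-1* (2.04-fold, adjusted p = 4.4e-06). The call in *rna15-1* was lost with wild-type replicates 1 to 3 alone, with 3 to 5 alone, when only both groups were fitted and with the replicate block. Its adjusted p over 21 alternatives was 0.00127 to 0.026 (limma), the highest with the block. *MRP51*, whose product is tied by yeast genetics to translation of *COX2* and *COX3* messages, had 11.55, 11.49 and 11.42 in *rna15-1*, 11.92, 11.96 and 11.91 in *rna14-1*, and 10.92 to 11.12 in wild type. Its rise was 0.47 ± 0.07 and 0.91 ± 0.07 (adjusted p = 9.9e-05 and 6.8e-07). The other 8 small subunit genes that rose in *rna15-1* changed by 0.28 (*MRPS28*) to 0.66 (*RSM24*).

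*RSM23* (YGL129C, chromosome VII), the yeast relative of the mammalian apoptosis-linked protein DAP3, was lower in both mutants. Its values were 10.40, 10.48 and 10.27 in *rna15-1*, 10.25, 10.24 and 10.29 in *rna14-1*, and 10.73, 10.73, 10.87, 10.87 and 10.99 in wild type. Every mutant array was below every wild-type array, and the gene fell by 0.45 ± 0.08 on the log2 scale in *rna15-1* and by 0.58 ± 0.08 in *rna14-1* (adjusted p = 0.00039 and 5.2e-05, limma). With the replicate block the call of *RSM23* in *rna15-1* was lost (adjusted p = 0.0111, limma). Its downstream neighbour *CEG1*, which encodes the mRNA capping enzyme and is transcribed towards it, rose by 0.59 and 1.06.

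The other small subunit genes that fell in *rna14-1* were *MRPS35*, *RSM25* and *MRP2*. *MRPS35* had 10.11, 10.16 and 9.57 in *rna15-1*, 9.49, 9.83 and 9.68 in *rna14-1*, and 10.24 to 10.30 in wild type, so that all 6 mutant arrays were below the narrow wild-type range. It fell by 0.62 ± 0.13 on the log2 scale in *rna14-1* (adjusted p = 0.0011, limma) and had −0.33 in *rna15-1* (adjusted p = 0.038). *RSM25* fell by 0.55 ± 0.14 and *MRP2*, for the counterpart of S14, by 0.41 ± 0.11 in *rna14-1* (adjusted p = 0.0049 and 0.0043). Both calls were lost with wild-type replicates 1 to 3 alone (adjusted p = 0.018 and 0.012) and with replicates 3 to 5 alone (0.028 and 0.019), and also when each *rna14-1* array in turn was left out.

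*MRP8* (YKL142W, chromosome XI), the gene outside the ribosome, had 12.77, 12.65 and 13.04 in *rna15-1*, 13.15, 13.08 and 13.18 in *rna14-1*, and 11.80, 11.86, 11.67, 11.63 and 11.67 in wild type. The mutant arrays were all above the wild-type arrays. It rose by 1.10 ± 0.09 in *rna15-1* (2.14-fold, adjusted p = 2.5e-06, limma) and 1.41 ± 0.09 in *rna14-1* (2.66-fold, adjusted p = 3.6e-07). Without it 24 of 65 genes rose and 1 fell in *rna15-1*, and 25 rose and 9 fell in *rna14-1*.

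**Figure D2:**
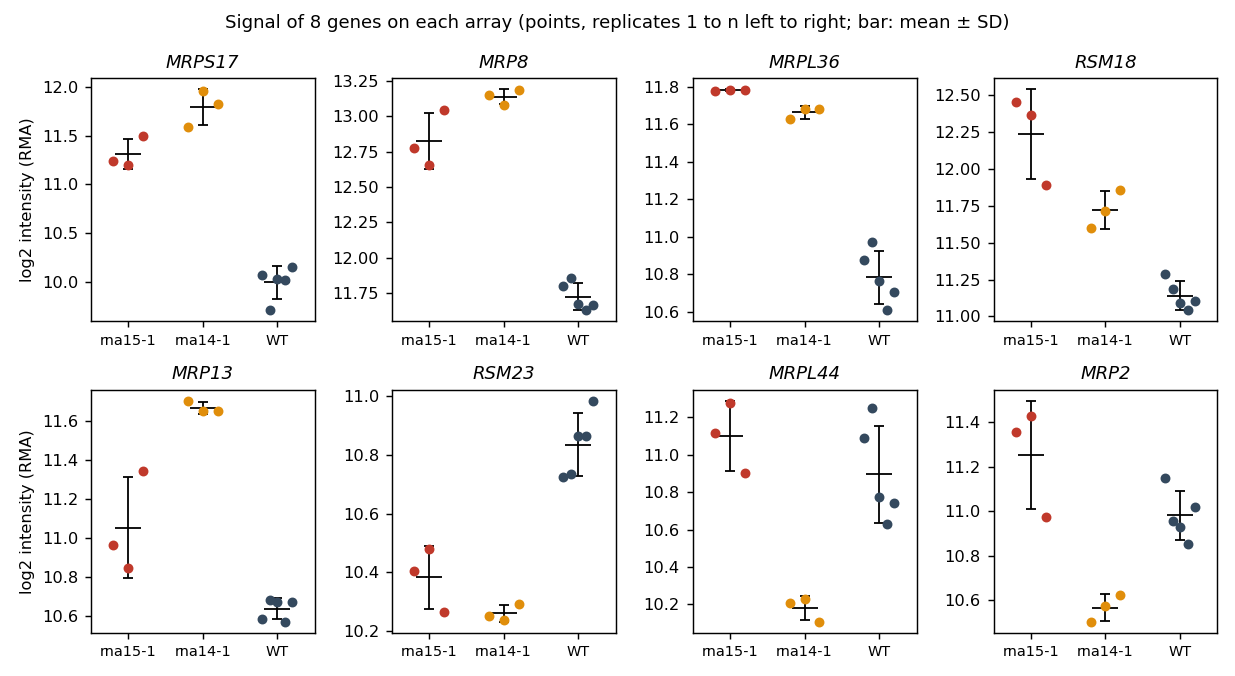
Log2 intensity (y axis) of 8 genes on each array, with *rna15-1*, *rna14-1* and wild type (WT) from left to right; points are arrays in replicate order and bars give the mean ± SD (n = 3, 3 and 5). *MRPS17*, *MRP8*, *MRPL36*, *RSM18* and *MRP13* were above wild type on all mutant arrays, *RSM23* was below, and *MRPL44* and *MRP2* were below wild type on the *rna14-1* arrays only.

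The 2 mutants were then compared with each other. Of the 66 genes 8 were higher (12.1%, against 16.0% of all genes) and 2 lower (3.03%, against 16.5%) in *rna15-1* than in *rna14-1* at an adjusted p under 0.01, with a median difference of 0.13 on the log2 scale against 0.01 over all genes. None passed the methods' full thresholds in either direction (limma; 22 were higher and 11 lower at an unadjusted p under 0.05), against 2.02% and 2.88% of all genes. The groups did not overlap for 22 genes with *rna15-1* higher (33.3%, against 29.5%) and for 13 with it lower (19.7%, against 29.1%).

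*MRPL44* differed the most, by 0.92 ± 0.16 (adjusted p = 0.00088, limma), with every *rna15-1* array above every *rna14-1* array. *MRP2* had 11.36, 11.43 and 10.98 in *rna15-1*, 10.50, 10.58 and 10.62 in *rna14-1*, and 10.85 to 11.15 in wild type. The 2 mutants lay on either side of the wild-type mean and differed by 0.69 ± 0.12 (adjusted p = 0.00091). *MRPL20*, a gene for a protein of mitochondria only, had 10.16, 10.14 and 9.59 in *rna15-1*, 9.21, 9.33 and 9.34 in *rna14-1*, and 9.59 to 9.69 in wild type, a difference between the mutants of 0.67 ± 0.13 (adjusted p = 0.0019).

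*MRPS12*, for the counterpart of S12 at the decoding centre, differed by 0.58 ± 0.11 (adjusted p = 0.0017, limma), and *MRPL22*, for the counterpart of L22 that lines the exit tunnel, by 0.54 ± 0.11 (adjusted p = 0.0031). Neither passed the threshold against wild type in either mutant. *MRPL8*, *MRPL32* (counterpart of L32) and *MRP17* (counterpart of S6) were higher in *rna15-1* by 0.44 ± 0.11, 0.41 ± 0.09 and 0.37 ± 0.08 (adjusted p = 0.0075, 0.0049 and 0.0022, limma). With the replicate block 4 genes were higher, and *MRPL8*, *MRPL32* and *MRP17* were not among them. Their calls were also lost without *rna14-1* replicate 1, without *rna15-1* replicate 1 and without *rna15-1* replicate 2. The 2 genes lower in *rna15-1* were *MRP13*, by 0.62 ± 0.11, and *MRP51*, by 0.44 ± 0.07 (adjusted p = 0.0012 and 0.00073). *MRPS17* had −0.48 ± 0.13 and *MRPL25* −0.66 (adjusted p = 0.012 and 0.011), just over the threshold. When only the mutants' arrays entered the fit, the calls of *MRPL8*, *MRPL20*, *MRPL22* and *MRP13* were lost, and the highest adjusted p over 21 alternatives was 0.0352, 0.0187, 0.0158 and 0.0131.

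The third *rna15-1* array weighed on this comparison. It was below the mean of replicates 1 and 2 for 50 of the 66 genes (median difference −0.157), against 2820 of the 5449 genes tested (median −0.015). Per array, the median of the 66 differences from the wild-type mean was 0.322, 0.318 and 0.179 in *rna15-1*, and 0.057, 0.196 and 0.123 in *rna14-1*. The median SD of the 66 over the *rna15-1* arrays was 0.144 with all 3 and 0.031 without replicate 3, against 0.079 in *rna14-1* and 0.103 in wild type. Without this array 21 genes were higher and 7 lower in *rna15-1* than in *rna14-1*, among them all 8 and both of those above, while 24.3% and 22.3% of all genes then passed. Against wild type, 30 of the 66 then rose in *rna15-1* in place of 25, and 28.7% of all genes in place of 28.2%. In the other direction, 4 genes were higher without *rna14-1* replicate 1, without *rna15-1* replicate 1 or without *rna15-1* replicate 2, and 5 without *rna14-1* replicate 3, while 9.8% to 10.7% of all genes were.

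**Figure D3:**
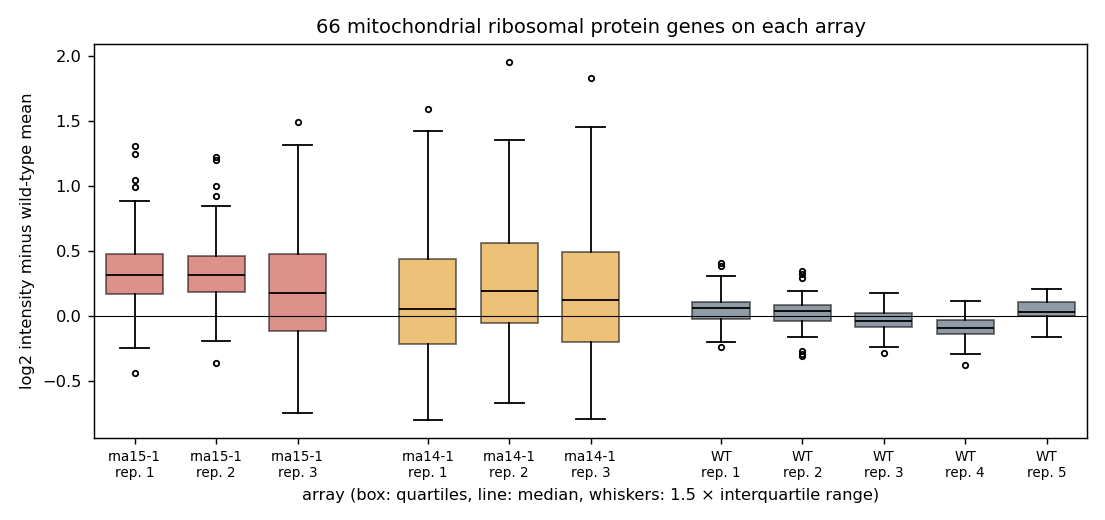
Log2 intensity of the 66 genes minus each gene's wild-type mean (y axis) on the 3 *rna15-1*, 3 *rna14-1* and 5 wild-type arrays; boxes give the quartiles, lines the medians, whiskers reach 1.5 interquartile ranges. The medians were 0.322, 0.318 and 0.179 on the *rna15-1* arrays, and the box of replicate 3 was wider than those of replicates 1 and 2.

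**Figure D4:**
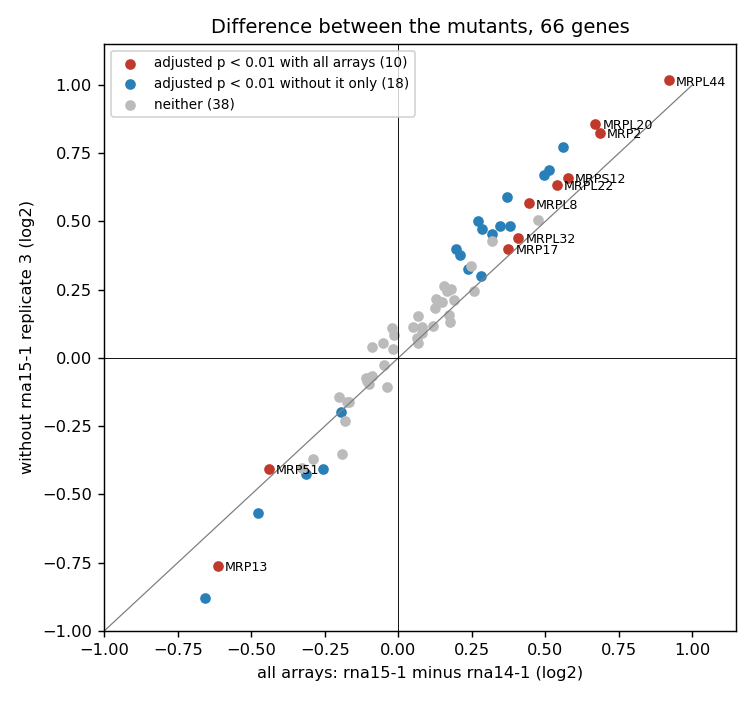
Difference between the mutants (*rna15-1* minus *rna14-1*, log2) for each of the 66 genes with all arrays (x axis) and without *rna15-1* replicate 3 (y axis), with the line of equal values. The 10 red genes passed an adjusted p under 0.01 with all arrays, and the 18 blue ones only without that array.

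The genes were also divided by properties that the rule did not use. By their family names in the reference annotation, 27 proteins have counterparts in all domains of life, 13 in bacteria, and 24 occur in mitochondria only. In *rna15-1* 11 of 27, 5 of 13 and 7 of 24 of these rose (40.7%, 38.5% and 29.2%, against 28.2% of all genes). The medians were 0.27, 0.29 and 0.29. In *rna14-1* 12, 5 and 7 rose and 2, 1 and 6 fell, where 29.5% of all genes tested fell. Of the 5 genes that fell with either choice of wild-type arrays as well, 3 belong to the 24 found in mitochondria only. The differences between these groups were not tested.

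The coding lengths of the 66 genes had a median of 706.5 bases (213 to 1887), against 1236 over all genes tested. Genes between the quartiles of that length (1228 of all genes tested) had medians of 0.197 in *rna15-1* and 0.056 in *rna14-1*, with 35.6% and 34.6% that rose and 15.1% and 25.7% that fell. Across the 66 genes Spearman's rho between coding length and log2 fold change was 0.016 in *rna15-1* and 0.21 in *rna14-1*, against −0.317 and −0.163 across all genes, and −0.341 for the difference between the mutants against −0.142. These values are a description, since genes measured on the same arrays are not independent. Of the 33 shorter genes 6 were higher (18.2%) and none lower in *rna15-1* than in *rna14-1*, and of the 33 longer genes 2 were higher and 2 lower (6.06% each). Of all genes 16.0% were higher and 16.5% lower. Where the downstream neighbour is transcribed towards the gene (39 genes), 14 rose and 1 fell in *rna15-1* (35.9% and 2.56%). In *rna14-1* 14 of these rose and 4 fell (35.9% and 10.3%). Where it follows in tandem (27 genes) the counts were 11 (40.7%) and 0, and 12 and 5 (44.4% and 18.5%). Of all genes 28.2% rose and 24.7% fell in *rna15-1*, and 32.8% and 29.5% in *rna14-1*.

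The remaining machinery of mitochondrial translation held genes that rose and genes that fell. Of 12 further mitochondrial ribosomal protein genes with other names, 5 rose and none fell in *rna15-1* (none was lower at an unadjusted p under 0.05 either, limma), and 3 rose and 1 fell in *rna14-1*. *RML2*, for the counterpart of L2 and on chromosome V, rose by 0.97 and 0.70, and *FYV4* by 0.73 and 0.47. *MHR1*, whose product also acts in mitochondrial DNA recombination, fell by 0.86 in *rna14-1* and had −0.14 in *rna15-1*, and the mutants differed (adjusted p = 0.00081).

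Of 23 genes for mitochondrial translation factors and for activators of single messages, 6 rose and 4 fell in *rna15-1* (26.1% and 17.4%, against 28.2% and 24.7% of all genes). In *rna14-1* 10 rose and 5 fell (43.5% and 21.7%, against 32.8% and 29.5%). There the alternatives gave 5 to 10 that rose and 2 (with wild-type replicates 1 to 3 alone) to 7 that fell. *RRF1*, the ribosome recycling factor gene, rose by 0.90 and 0.80, while *MRF1*, the release factor gene, fell, with −0.98 in *rna15-1* and −1.73 in *rna14-1*. *PET122*, an activator of *COX3* translation encoded on chromosome V, fell, with −1.23 and −1.75. Of 13 mitochondrial aminoacyl-tRNA synthetase genes 2 rose and 4 fell in *rna15-1* (15.4% and 30.8%), and 3 rose and 5 fell in *rna14-1* (23.1% and 38.5%). Over the alternatives 2 to 5 and 3 to 5 fell. Among the synthetase genes *ISM1*, for isoleucine, fell, with −1.99 and −2.68, and *MSY1*, for tyrosine, rose by 0.79 and 1.03.

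Nuclear genes of the respiratory complexes rose in larger shares, with 31 of 36 in *rna15-1* (86.1%, against 28.2% of all genes) and 23 in *rna14-1* (63.9%, against 32.8%). In *rna15-1* 1 of them fell, and in *rna14-1* none fell (1 was lower at an unadjusted p under 0.05, limma). Their medians were 0.78 and 0.66, against 0.28 and 0.13 for the 66 genes. *SDH2*, for the iron-sulphur subunit of succinate dehydrogenase, rose by 2.08 and 2.16, and *CYT1*, for cytochrome c1, by 1.54 and 1.51. Of the 128 cytosolic ribosomal protein genes 26 fell in *rna15-1* (20.3%, against 24.7% of all genes) and 58 in *rna14-1* (45.3%, against 29.5%). None rose in either (2 were higher in each at an unadjusted p under 0.05, limma), against 28.2% and 32.8% of all genes. The medians of these cytosolic genes were −0.09 and −0.17. The alternatives gave 12 to 43 that fell in *rna15-1* and 30 to 75 in *rna14-1*, the most with a trended, robust variance, and up to 2 and 1 that rose. No test of the difference between these lists was made.

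Of the known regulators, *PUF3* rose by 1.42 ± 0.26 in *rna15-1* and 1.55 ± 0.26 in *rna14-1* (adjusted p = 0.00064 and 0.00028, limma). Its wild-type arrays were spread widely, from 6.90 to 8.29, and the mutant arrays had 9.09 or more. *HAP2*, a subunit gene of the activator of respiratory genes, rose by 1.14 and 0.58, while *HAP4*, the subunit gene that limits this activator, had 0.00 and 0.32 (adjusted p = 0.99 and 0.062). *HAP3* and *HAP5*, also among the regulators, rose by 0.56 and 0.54 in *rna15-1* (adjusted p = 0.00063 and 0.0022, limma). In *rna14-1* they had −0.10 and −0.29 (adjusted p = 0.41 and 0.049). *HAP1*, for the haem-dependent activator, fell by 1.20 in *rna15-1* and had −0.22 in *rna14-1* (adjusted p = 0.022), a difference between the mutants of −0.98 (adjusted p = 1e-05). The messages of mitochondrial DNA itself were not analysed here.

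**Figure D5:**
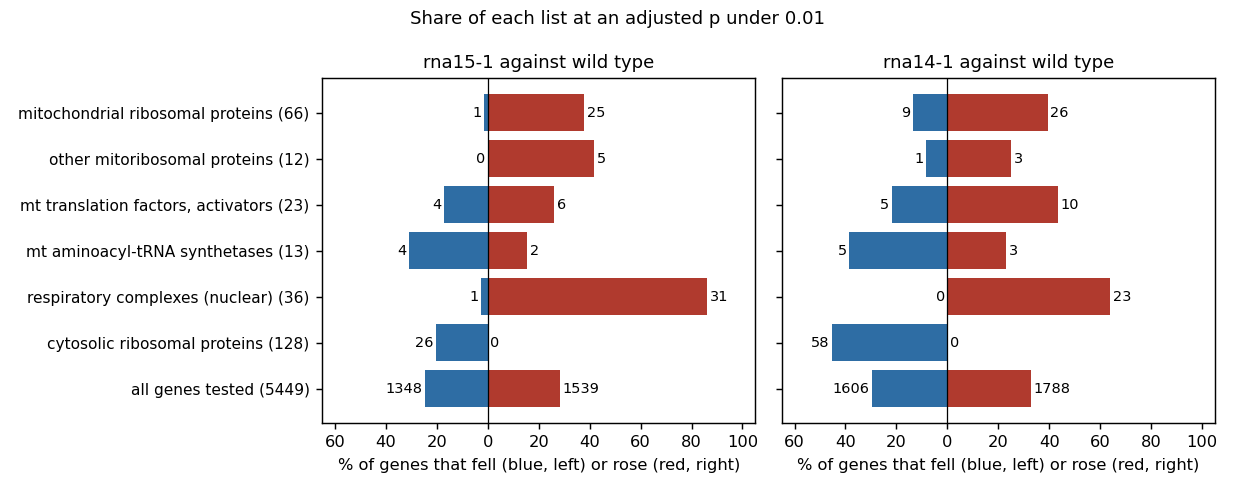
Percentage of each gene list (number of genes in brackets) that fell (blue, to the left) or rose (red, to the right) at an adjusted p under 0.01 in *rna15-1* (left panel) and *rna14-1* (right panel) against wild type, with the number of genes beside each bar. In *rna15-1* 25 of 66 mitochondrial ribosomal protein genes rose and 1 fell, against 1539 and 1348 of all 5449 genes.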

How the data were processed

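Total RNA of 11 cultures was labelled by the authors and hybridised to Affymetrix yeast arrays. The deposited values are log2 intensities per probe set, which the submitters' processing notes credit to GCOS, RMA and limma; versions are not given in the sources used here. RMA had background-corrected and normalized the arrays together and summarised their probes, so values of different probe sets were not set against each other. Of 10928 probe sets, 7244 had 1 gene symbol in the platform annotation, 1 had several and 3683 had none, and 5498 could be matched to 5449 *S. cerevisiae* genes (the brightest probe set of each gene was kept). Names, chromosomes, coding lengths and gene order came from the RefSeq annotation of the R64 assembly; the files name no build, so no coordinates are given.

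Linear models were fitted with limma 3.58.1 (lmFit and eBayes, R 4.3.3) over all 5449 genes and 11 arrays, with 1 coefficient per strain, and p-values were adjusted by Benjamini-Hochberg over the 5449 genes. SE is the standard error of the moderated fit. The precision is limited by 3, 3 and 5 arrays. The procedure was tested on simulated data. The members and lists were chosen with earlier results of these data known. Members named in the text were those called at the methods' thresholds, those with the 6 largest changes in each direction per comparison among those with an adjusted p under 0.01, and those on chromosome V; from each other list, genes among the 4 largest changes at that threshold in a mutant were named. *MRPL32*, *MRP17*, *MRPL24*, *MRPL1*, *MRPS28*, *RSM24*, *MRP49* and *MRPL37*, the neighbouring genes, *HAP4*, *HAP5* and the genes *RNA14* and *RNA15* were named beside these after their values were seen. Alternatives were another normalization, other choices of wild-type arrays, filters, thresholds and variance models, a replicate block and each array left out.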

Additional observations from a re-analysis of the deposited data

Results flagged for a closer look

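Of 21 sets of wild-type values examined for a stray array, 2 held 1 sample far from the others by Dixon's ratio. That ratio is the gap to the nearest sample over the whole range. For *MRPL38* the ratio was 0.821, with replicate 4 at 11.12 and the others at 11.29 to 11.33. For *MRPS17* it was 0.715, with replicate 2 at 9.71 and the others at 10.02 to 10.15. Chance gives about 1 in 20 such ratios.

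Between *rna15-1* and *rna14-1*, 10 genes differed by the test of the difference itself (limma, adjusted p under 0.01). *rna15-1* minus *rna14-1* was 0.919 for *MRPL44*, 0.685 for *MRP2*, 0.67 for *MRPL20*, 0.577 for *MRPS12*, 0.539 for *MRPL22*, 0.443 for *MRPL8*, 0.408 for *MRPL32* and 0.374 for *MRP17*. It was −0.441 for *MRP51* and −0.615 for *MRP13*.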

How the results depend on the processing

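For *rna15-1* against wild type, 41 genes rose and 4 fell at an adjusted p under 0.05, 2 fell after quantile normalization and after a median shift, 0 fell with the replicate block, and 10 were called up with no fold threshold. For *rna14-1*, 5 genes fell with wild-type replicates 1 to 3 only and 5 with replicates 3 to 5 only (25.6% and 29.3% of all genes). In that mutant 2 were called up after quantile normalization, after a median shift and with the replicate block, and 11 were called up and 1 down with no fold threshold. The median in *rna14-1* was 0.084 with wild-type replicates 1 to 3 only and with the replicate block. Both rest on the same wild-type arrays, because replicate numbers 4 and 5 occur in wild type only. The median of the large subunit genes in *rna14-1* was −0.00139 after quantile normalization in place of 0.049. Between the mutants, 5 genes were higher and 1 lower when only both groups were fitted, 4 were higher with the replicate block, 4 were lower with a trended, robust variance, and 16 were higher and 6 lower at an adjusted p under 0.05. A looser threshold lets more of all genes pass as well. The shares of all genes at the other thresholds, normalizations and fits are not given here, so these counts describe the processing only.

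With single arrays left out, 19 to 30 genes rose and 1 to 2 fell in *rna15-1* (called up 2 to 4, called down 0, median 0.247 to 0.306). Of all genes 24.9% to 28.7% then rose and 22.0% to 24.4% fell. In *rna14-1*, 21 to 27 rose and 5 to 11 fell (called up 3 to 4, called down 0, median 0.0843 to 0.173), against 28.4% to 35.4% and 25.1% to 32.8% of all genes. Between the mutants, 4 to 21 were higher and 2 to 7 lower (median 0.0939 to 0.154), against 9.8% to 24.3% and 10.7% to 22.3% of all genes.

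The replicate numbers did not pair the arrays (same-number correlations of −0.138 to 0.344, 3 of 9 over 0.1, against −0.361 to 0.32 for other numbers). With the replicate block 19 genes rose in *rna15-1*, and 18 rose and 7 fell in *rna14-1*, and the adjusted p was over 0.01 for *RSM23* (0.0111) and *MRP13* (0.026) in *rna15-1*, for *RSM18*, *MRP2* and *RSM25* (0.0184, 0.0178 and 0.0108) in *rna14-1*, and for *MRPL20* and *MRPL8* (0.0109 and 0.0153) between the mutants. *MRPL32* and *MRP17* also lost their calls between the mutants with the block. The shares of all genes with the block are not given here. It also gave the lowest counts of cytosolic ribosomal protein genes that fell (12 and 30) and of translation factor genes that rose in *rna14-1* (5). Of 35 values of the members named by rule, 26 passed the threshold under all 21 alternatives, 9 lost it under some and none turned. *MRPL8* between the mutants lost it under 13. This tally leaves out the members named after their values were seen, among them *MRPL32*, *MRP17*, *MRP49* and *MRPL37*. The cause of these changes was not tested.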
